A study of Mus musculus with 6 samples.

Results

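Neurofilament and other intermediate filament genes were followed in mouse embryonic fibroblasts (MEFs) that lacked the histone variant H2AX and in wild-type MEFs. The group held 10 of 19938 genes measured on the arrays: the neurofilament subunits Nefl, Nefm and Nefh, the neuronal filament genes Ina and Prph, the genes for nestin (Nes), vimentin (Vim), desmin (Des) and glial fibrillary acidic protein (Gfap), and the nuclear lamin gene Lmna. Members were taken by gene symbol from the array annotation, and Nefl was chosen by its measured values on these arrays, as the gene with the largest fall of all. Its values are therefore given as a description, without a test. Where a gene had several probe sets the one with the highest mean was taken, which applied to Ina alone. The next largest fall was that of Slc14a1, at a log2 fold change of -5.87, against -6.40 for Nefl.

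RNA was measured on 3 Affymetrix Gene ST arrays of H2AX knockout (KO) MEFs and 3 arrays of wild-type (WT) MEFs. Both populations were untreated, were grown in the same serum-containing medium and were obtained from 1 laboratory, and the sources used here name neither strain, embryonic stage nor separate embryos or cultures, although a legend of the study calls the replicates independent without saying in what. The p-values therefore measure the spread between these arrays, and with 3 arrays against 3 an exact permutation test cannot give a p below 0.10. The values are log2 expression values as normalized by the authors, on which a difference of 1 is a change of 2-fold. H2ax, the targeted gene, had 7.69, 7.77 and 7.67 in KO cells, against 8.96, 9.18 and 9.00 in WT cells. The KO arrays all lay below the WT arrays, by a log2 fold change of -1.34 (adjusted p = 5.8e-07, limma), and part of the signal was still present in KO cells. The Y-linked gene Kdm5d had 4.79, 4.84 and 5.13 in KO cells, against 7.71, 7.86 and 7.84 in WT cells, so that a difference in Y-linked transcripts runs with genotype in these cells and the effects of the 2 on any other gene cannot be told apart.

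Intermediate filaments are rope-like polymers of proteins that share a central coiled-coil rod. Their subunits are used by cell type: vimentin is the subunit of fibroblasts and other mesenchymal cells, desmin of muscle, glial fibrillary acidic protein of astrocytes, nestin of neural and muscle progenitors, and peripherin and α-internexin (Ina) of neurons, while lamins line the inside of the nuclear envelope. Neurofilaments set the calibre of axons. Their light subunit, encoded by Nefl, is the core on which the medium and heavy subunits, encoded by Nefm and Nefh, are built.

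To place the values on the array scale, the 1027 genes of olfactory receptors, which fibroblasts are not known to use, served as a measure of background. Over the arrays, their median lay between 4.41 and 4.61 and their 95th percentile between 5.69 and 5.96. Probe sets differ in how strongly they respond, so that this range places a value near or above background and does not rank transcripts against each other. Of 16 measured fibroblast markers, 15 in KO cells and 16 in WT cells lay above the 95th percentile of the olfactory receptor genes, and the exception in KO cells was Fap, a membrane protease, at 4.45. Of the 16 markers, 15 (93.8%, against 33.4% of all genes) passed the test between genotypes, 10 of them higher and 5 lower in KO cells. The largest rise was that of the surface protein gene Thy1, at means of 10.60 in KO cells and 6.57 in WT cells. The largest fall was that of Fap, at means of 4.45 in KO cells and 7.02 in WT cells. Pdgfrb and Col6a2 also rose, at log2 fold changes of 1.70 and 0.82. Dcn and S100a4 also fell, at log2 fold changes of -2.15 and -0.47. The share over all genes includes genes at background, while the 16 markers mostly lay above it. The part of the markers in the differences between filament genes was not tested.

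RefSeq promoter sequence (build GRCm38.p6) was at hand for 7 of the 10 members, Ina, Prph, Nes, Vim, Des, Gfap and Lmna. It was not at hand for Nefl, Nefm and Nefh. The 250 bases before the start of transcription are shown for Nes, the member other than Nefl that differed between genotypes, and for Vim, whose level was high in both genotypes. They lie on the plus strand, Nes at chr3:87970843-87971092 and Vim at chr2:13574061-13574310. Capitals mark matches on either strand to the TATA box, searched as TATAAA, the GC box, searched as GGGCGG, the box searched as CCAAT, or the AP-1 site, searched as TGACTCA.
Nes: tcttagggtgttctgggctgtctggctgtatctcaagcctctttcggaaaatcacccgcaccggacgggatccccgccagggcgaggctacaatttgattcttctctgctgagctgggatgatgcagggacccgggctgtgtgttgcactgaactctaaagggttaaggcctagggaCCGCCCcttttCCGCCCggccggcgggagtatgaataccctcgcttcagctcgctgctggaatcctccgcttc
Vim: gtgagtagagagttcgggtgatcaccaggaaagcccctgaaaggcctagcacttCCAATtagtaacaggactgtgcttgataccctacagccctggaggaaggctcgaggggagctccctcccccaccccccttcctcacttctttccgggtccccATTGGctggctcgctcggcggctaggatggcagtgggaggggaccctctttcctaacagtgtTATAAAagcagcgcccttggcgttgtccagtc
The Nes window held 2 GC boxes and none of the other motifs, and the Vim window held 1 TATA box and 2 CCAAT boxes. Of 32851 promoter windows of the same length in the table, 32.7% held a GC box, 12.4% a TATA box, 33.8% a CCAAT box and 4.46% an AP-1 site. No matches overlapped each other in these windows. A match is a string of letters and was not tested as a binding site.

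Among the neurofilament subunits, Nefl had log2 values of 5.57, 5.32 and 5.43 in KO cells, against 11.81, 11.81 and 11.90 in WT cells. The 2 genotypes did not overlap, and 6.24 log2 units lay between the highest KO array and the lowest WT array. The means were 5.44 ± 0.12 in KO cells and 11.84 ± 0.05 in WT cells (SD, n = 3 each), an 84.5-fold lower value in KO cells. The WT mean was higher than that of 99.3% of all genes, and the KO mean lay inside the range of the olfactory receptor genes, 92.4% of which were lower. Array values near background are compressed, so that the size of the fall is understated where the KO level is at background. In bulk RNA such as this, fewer cells with the transcript and less transcript per cell cannot be told apart.

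Nefm, the medium subunit, which is the next gene to Nefl on chromosome 14 among those measured, lay at background on every array. Its log2 values were 4.13, 4.43 and 4.23 in KO cells and 4.12, 4.18 and 4.16 in WT cells, and the genotypes overlapped. The log2 fold change was 0.11 (95% interval -0.07 to 0.30, adjusted p = 0.35, limma). In WT cells, where Nefl stood near the top of the array scale, 25.3% of olfactory receptor genes were lower than Nefm.

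Nefh, the heavy subunit that carries the long tail of axonal neurofilaments, had 6.24, 6.39 and 6.35 in KO cells and 6.23, 6.22 and 6.44 in WT cells. The ranges overlapped, and the means of 6.33 in KO cells and 6.30 in WT cells lay just above the 95th percentile of the olfactory receptor genes (5.73 in KO cells and 5.82 in WT cells, over genotype means). The log2 fold change of 0.03 (95% interval -0.15 to 0.21, adjusted p = 0.83, limma) had no stable sign and was -0.0023 without KO replicate 2.

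Unlike Nefh, the other neuronal filament genes lay within the background range in both genotypes. Ina, which encodes α-internexin, had 5.27, 5.37 and 5.16 in KO cells and 5.30, 5.24 and 5.09 in WT cells, with a log2 fold change of 0.06 (95% interval -0.13 to 0.24) that was -0.0044 without WT replicate 3. A second Ina probe set, lower on all arrays, differed by 0.08 on the log2 scale. Prph, which encodes the peripherin of peripheral neurons, had 5.39, 5.67 and 5.74 in KO cells and 5.45, 5.48 and 5.41 in WT cells. KO replicate 1 lay below the WT arrays and the other KO arrays lay above them. Its log2 fold change of 0.16 (95% interval -0.05 to 0.36, adjusted p = 0.25, limma) did not pass the test, and passed it without KO replicate 1, at 0.26 (adjusted p = 0.021).

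**Figure D1:**
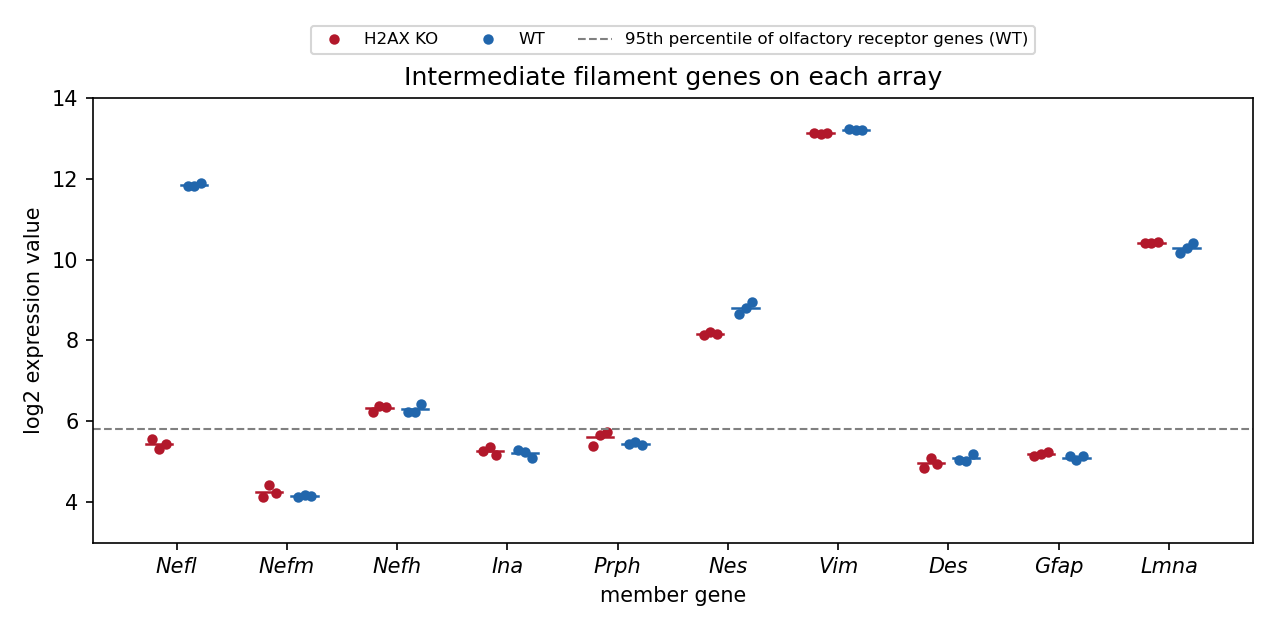
Log2 expression value (y axis) of each member gene (x axis) on the 3 H2AX KO arrays (red) and the 3 WT arrays (blue), with short lines for the means and a dashed line at 5.82, the 95th percentile of the olfactory receptor genes in WT cells. Nefl lies at 5.32 to 5.57 in KO cells and at 11.81 to 11.90 in WT cells, while Nefm, Ina, Prph, Des and Gfap lie under the dashed line in both genotypes.

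Nes was lower in KO cells. Nestin, its product, builds filaments with vimentin and is widely used as a mark of progenitor cells. Its log2 values were 8.14, 8.21 and 8.15 in KO cells, against 8.65, 8.80 and 8.96 in WT cells. Every KO array was lower than every WT array, and the WT arrays were spread more widely (SD 0.16) than the KO arrays (SD 0.04). Nes fell by 0.64 on the log2 scale (95% interval -0.83 to -0.45, adjusted p = 0.00022, limma), a 1.56-fold lower level in KO cells. Both genotypes lay above all olfactory receptor genes.

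Vim, the filament gene typical of fibroblasts, was near the top of the array scale in both genotypes. It had 13.14, 13.12 and 13.14 in KO cells, against 13.23, 13.20 and 13.22 in WT cells. The KO arrays were lower without overlap, by 0.05 log2 units at the nearest arrays. The log2 fold change of -0.08 (95% interval -0.21 to 0.05) did not pass the test (adjusted p = 0.36, limma). It passed with the test of the methods, in which the variance is not moderated across genes (adjusted p = 0.020) and which uses the small spread of this gene alone (SD 0.01 in KO cells and 0.02 in WT cells). The size of the difference was the same under both, 1.06-fold. The methods also asked for a change over 2-fold, which Vim did not reach.

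Lmna, whose transcripts encode lamins A and C and whose probe set does not tell them apart, was also well above background. It had 10.40, 10.42 and 10.43 in KO cells and 10.16, 10.30 and 10.41 in WT cells. The highest WT array lay within the KO range, and the log2 fold change was 0.13 (95% interval -0.04 to 0.29, adjusted p = 0.24, limma).

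Des and Gfap, the filament genes of muscle and of astrocytes, stayed within the background range. Des had 4.85, 5.09 and 4.95 in KO cells and 5.05, 5.03 and 5.20 in WT cells, with overlap and a log2 fold change of -0.13 (95% interval -0.32 to 0.05). Gfap had 5.15, 5.19 and 5.24 in KO cells and 5.13, 5.05 and 5.13 in WT cells. The KO arrays of Gfap were higher without overlap by 0.02 log2 units, and the log2 fold change of 0.09 (95% interval -0.05 to 0.23, adjusted p = 0.32, limma) did not pass the test.

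Of the 9 members other than Nefl, 1 was lower and none was higher, also at an unadjusted p under 0.05, and 8 remained without a call. Over all genes 33.4% passed in either direction, 15.0% lower and 18.4% higher, where the share of the 9 was 11.1%. The median log2 fold change of the 9 genes was 0.06, against 0.02 over all genes. The intervals of the 8 members that did not pass ran from -0.32 at the lowest to 0.36 at the highest, or at most 1.28-fold on the array scale. Of these 8 genes, Nefm, Ina, Prph, Des and Gfap lay within the background range, where values are compressed and the interval does not limit the change in transcript. Vim lay near the other end of the scale, where the highest value per array was 13.61 to 13.72. Whether its interval limits the change in transcript was not tested. Of the 10 members, 4 had KO and WT arrays that did not overlap (Nefl, Nes, Vim and Gfap), where 44.8% of all genes did not overlap.

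**Figure D2:**
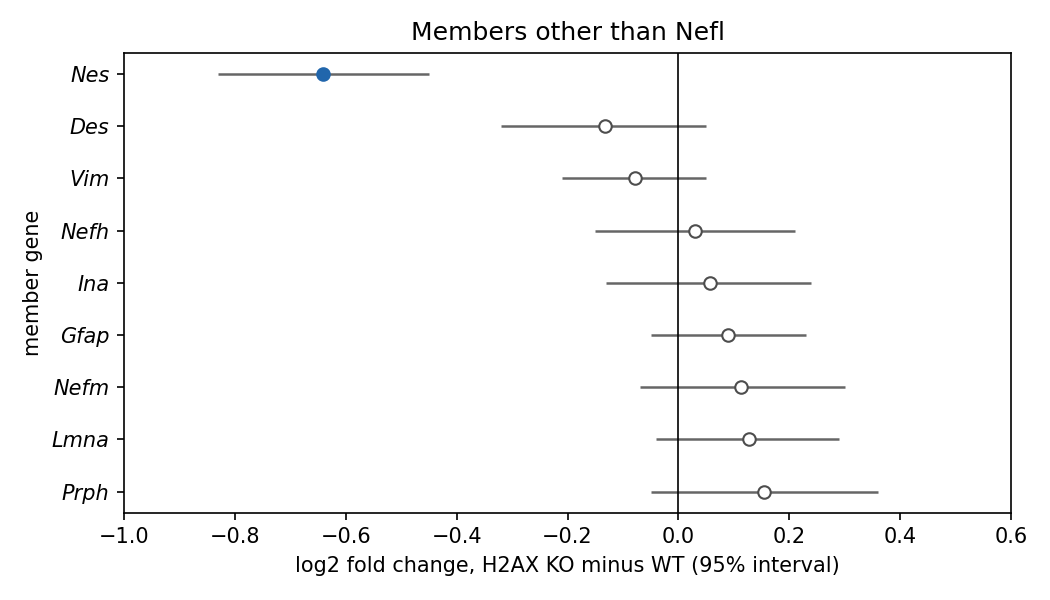
Log2 fold change of H2AX KO minus WT MEFs (x axis) for the 9 members other than Nefl (y axis), with bars for the 95% interval from limma and a filled point where the adjusted p was under 0.05. Nes lies at -0.64 with its interval below 0, and the intervals of the other 8 genes include 0.

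Nefl and Nefm lie side by side on chromosome 14, and the 5 measured genes on each side of the pair were compared in the same fit. Of these 10 neighbours, 1 was higher and 2 were lower, or 3 of 10 against 33.4% over all genes. Dock5, a guanine nucleotide exchange factor and the measured gene next to Nefl, had 9.43, 9.56 and 9.47 in KO cells and 9.43, 9.45 and 9.44 in WT cells, a log2 fold change of 0.04 (95% interval -0.09 to 0.18). Adam7, next to Nefm on the other side, lay at background in both genotypes.

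Stc1, the gene of the secreted glycoprotein stanniocalcin and the fourth measured gene beyond Nefm, had 6.42, 6.65 and 6.62 in KO cells, against 11.76, 11.74 and 11.86 in WT cells. The genotypes were 5.09 log2 units apart at the nearest arrays, and the log2 fold change was -5.22 (95% interval -5.40 to -5.05, adjusted p = 2.0e-10, limma). The genes between Nefm and Stc1, Adam7, Adamdec1 and Adam28, had log2 fold changes of 0.00, -0.15 and -0.34, of which that of Adam28, a metalloprotease gene within the background range, passed the test (adjusted p = 0.0057). On the other flank Cdca2, a mitotic chromatin protein gene, rose by 0.48 (adjusted p = 0.00067). Without KO replicate 2 the count of neighbours that passed was 5, with Kctd9 and Gnrh1 added as higher.

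**Figure D3:**
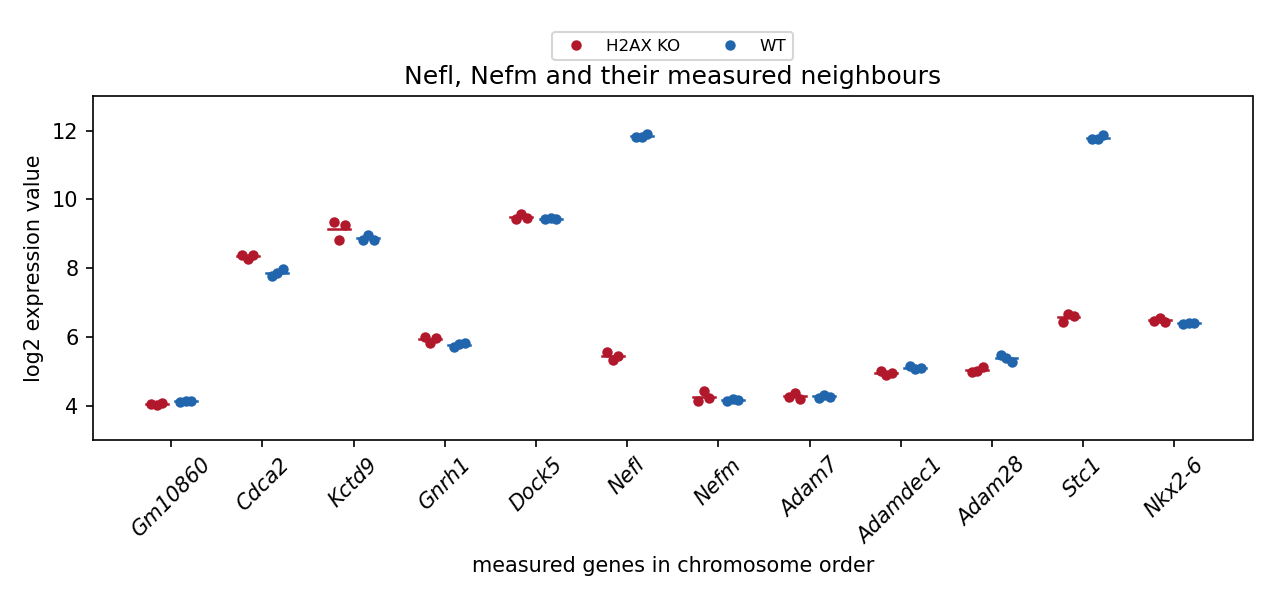
Log2 expression value (y axis) of Nefl, Nefm and the 5 measured genes on each side in their order on chromosome 14 (x axis, not to scale) on the H2AX KO (red) and WT (blue) arrays, with short lines for the means. Nefl and Stc1 are far lower in KO cells, at means of 5.44 and 6.56 against 11.84 and 11.79 in WT cells, and the genes between them differ by at most 0.34.

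The genes whose values ran most like those of Nefl were found as the smallest Euclidean distance over the 6 arrays, after each gene was centred on its own mean. Genes without a name, predicted genes and small RNAs were left out of this ranking. The nearest genes were Slc14a1, a urea transporter (distance 0.77 log2 units), the receptor gene Gpr149 (1.12), Trp53i11 (1.28), the homeobox gene Hoxc8 (1.36) and the protease gene Mcpt8 (1.43). Slc14a1 averaged 5.69 in KO cells and 11.56 in WT cells, and Mcpt8 averaged 4.45 in KO cells and 9.72 in WT cells. All 5 were chosen for this likeness, and their order was that of the size of their falls. The distance thus largely repeats the measure by which Nefl was picked. Only Mcpt8 shares chromosome 14 with Nefl.

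Because neurofilaments are products of neurons, markers of neurons were read on the same arrays. Of 19 measured neuron markers, 6 passed the test, with 3 higher and 3 lower. This share of 31.6% was near the 33.4% of all genes. Their mean level lay between 5.45 and 5.55 on the KO arrays and between 5.51 and 5.53 on the WT arrays, and 5 in KO cells and 4 in WT cells exceeded the 95th percentile of the olfactory receptor genes. Rbfox3, Stmn2, Dcx and Syp, which are defining genes of neurons, lay within the background range in both genotypes. Map2 and Gap43, also defining genes, and the further marker Chga lay above it in both. Their means were 7.79, 6.42 and 6.27 in KO cells and 6.07, 7.10 and 6.22 in WT cells.

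The neuron marker that fell most was Isl1, a LIM homeodomain factor of motor and sensory neurons that is also used outside the nervous system. It had 5.43, 5.79 and 5.91 in KO cells, against 8.14, 8.31 and 8.35 in WT cells, and fell by 2.56 on the log2 scale without overlap (adjusted p = 1.5e-07, limma). Its KO mean of 5.71 lay within the background range, so that the size of this fall is that of the array values. Gap43, a growth cone protein gene, fell by 0.68. Elavl4, which encodes a neuronal RNA-binding protein, fell by 0.54 with both genotypes within the background range. Map2, a microtubule-associated protein gene of dendrites, moved the other way, with 7.90, 7.58 and 7.89 in KO cells and 6.13, 6.14 and 5.93 in WT cells, a rise of 1.73 (adjusted p = 7.0e-07, limma). Tubb3, the neuronal β-tubulin gene, rose by 0.83 and Uchl1, a neuronal ubiquitin hydrolase gene, by 0.66. The WT means of Tubb3 and Uchl1, 5.39 and 5.58, lay within the background range. The part of these genes in the difference in Nefl was not tested.

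For Nes, Gfap and Des, markers of glia, neural progenitors and muscle were read in the same way. Of 16 measured glial and progenitor markers, 3 were higher and 1 was lower, a share of 25.0% against 33.4% of all genes. The mean level of the 16 markers was 6.00 to 6.07 on the KO arrays and 5.88 to 5.90 on the WT arrays. Of them, 7 in KO cells and 6 in WT cells exceeded the 95th percentile of the olfactory receptor genes. S100b, Aqp4, Slc1a2, Olig2, Mbp and Pax6 lay within the background range in both genotypes. Sox10, Sox1 and Hes5 lay above it in both and did not pass. Pax3, a factor of neural crest and muscle progenitors, was lower like Nes, with 7.37, 7.24 and 7.24 in KO cells, against 8.23, 8.43 and 8.42 in WT cells (log2 fold change -1.07, adjusted p = 2.9e-06, limma). Slc1a3, a glutamate transporter gene of astrocytes, was higher in KO cells, at means of 10.91 in KO cells and 8.46 in WT cells. Msi1, an RNA-binding protein gene of neural progenitors, rose by 0.73 from a WT mean of 5.74, within the background range. Sox2 passed at 0.23 (adjusted p = 0.048), and this call was lost without 5 of the 6 arrays, each left out in turn, among other settings.

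Of 20 measured muscle markers, 6 passed the test, 5 higher and 1 lower, near the 33.4% of all genes, and 12 in KO cells and 11 in WT cells exceeded the 95th percentile of the olfactory receptor genes. The mean level of the 20 genes was 6.98 to 7.05 on the KO arrays and 6.58 to 6.62 on the WT arrays. The higher genes encode contractile proteins and were led by Actg2, with 9.72, 9.75 and 9.74 in KO cells, against 6.84, 6.97 and 7.07 in WT cells, followed by Cnn1, whose WT mean of 5.44 lay within the background range, and Tagln, at log2 fold changes of 2.56 and 2.35. Acta2, the smooth muscle actin gene, also rose, by 0.84 without overlap (adjusted p = 4.1e-06, limma). Myh11, Smtn and Cald1, also used in smooth muscle, did not pass, with log2 fold changes of 0.05, 0.09 and -0.13. The lower gene was Tnnt3, a troponin gene of skeletal muscle, which fell by 0.83. Of the skeletal muscle factors, Myog and Myf5 lay within the background range in both genotypes and Myod1 lay above it, at 6.35 in KO cells and 6.25 in WT cells, and none of the 3 passed the test. Des did not pass the test in the same cells. Markers of epithelium and leukocytes were low, with 2 of 10 and 2 of 7 above the 95th percentile of the olfactory receptor genes in KO cells, and 1 of 10 and 2 of 7 in WT cells. Of these markers, Ocln, a tight junction gene, fell by 0.71 within the background range, and Cd68 rose by 0.29 (adjusted p = 0.025), a call that was lost under 6 of the 13 alternatives.

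Other genes of the filament system were read from lists drawn up by function. Of 36 measured intermediate filament genes outside the 10 members, mostly keratins together with B-type lamins and lens and muscle genes, 7 passed (5 higher, 2 lower), a share of 19.4% against 33.4% over all genes. Sync, the gene of syncoilin, a filament protein that links desmin to the membrane complex of muscle, rose by 1.32, with 8.26, 8.15 and 8.40 in KO cells and 7.19, 6.91 and 6.75 in WT cells (adjusted p = 1.2e-05, limma). Synm, the gene of synemin, which joins vimentin and desmin filaments, rose by 0.37 to a level near background, and the keratin gene Krt80 rose by 0.77. Iffo2, an orphan member of the filament family, fell by 1.12 and Iffo1 by 0.28, and the call of Iffo1 was lost without WT replicate 1, 2 or 3. Krt8 and Krt18, the keratin pair of simple epithelia, had log2 fold changes of -0.16 and 0.08 and did not pass.

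Of 27 genes that link filaments to junctions, to other cytoskeletal systems or to the nuclear envelope, or that process lamins, 17 passed (8 higher, 9 lower), a share of 63.0% against 33.4% over all genes. The share over all genes includes genes at background, and neither this list nor the others were matched to it for level. Over a change of 2-fold, 2 of the 27 genes passed, or 7.41%, against 5.30% of all genes. These were the desmosomal plaque genes Pkp2 and Jup, which moved in opposite directions. Pkp2, plakophilin, had 7.99, 7.72 and 7.84 in KO cells, against 5.71, 6.00 and 5.83 in WT cells (log2 fold change 2.00, adjusted p = 1.7e-07, limma). Jup, plakoglobin, had 8.52, 8.88 and 8.64 in KO cells, against 10.18, 10.16 and 10.16 in WT cells (log2 fold change -1.49, adjusted p = 9.3e-07, limma). Dsp, the desmoplakin that ties keratin and desmin filaments to the plaque, had a log2 fold change of 0.11 and did not pass.

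Among the linkers of vimentin and lamins the changes were smaller. Dst, a spectraplakin that joins filaments to microtubules and actin, fell by 0.63, and Syne2, a nesprin of the outer nuclear membrane, by 0.58. The genes of the inner nuclear membrane proteins Lemd3 and Lemd2, which bind lamins or chromatin, rose by 0.63 and 0.53. Plec, the plectin that binds vimentin, and Zmpste24, the protease that matures lamin A, had log2 fold changes of -0.17 and -0.25 and did not pass.

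Of 22 measured genes of filament turnover and modification, 11 passed (5 higher, 6 lower), or 11 of 22 against 33.4% over all genes. The lower ones included proteases that cut filament proteins. Casp6, the caspase that cleaves lamin A, had 7.85, 7.43 and 7.68 in KO cells, against 9.09, 9.12 and 9.17 in WT cells (log2 fold change -1.47, adjusted p = 2.2e-06, limma). Capn2 and Capn1, calpains that degrade neurofilaments, fell by 0.94 and 0.55. The higher ones included Hspb1, a small heat shock protein gene, at 0.76, and the kinase genes Prkce at 0.75 and Gsk3b, whose product phosphorylates neurofilament tails, at 0.64. The 3 lists had median log2 fold changes of 0.06 for filament genes, -0.02 for linkers and 0.12 for turnover, against 0.02 over all genes.

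**Figure D4:**
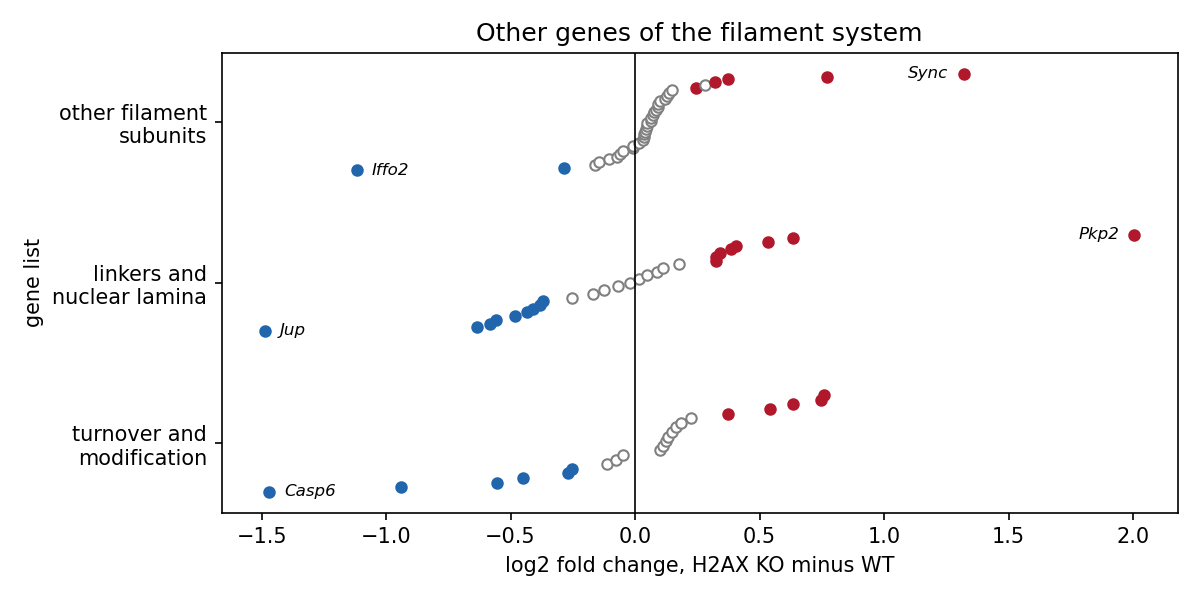
Log2 fold change of H2AX KO minus WT MEFs (x axis) for each measured gene of 3 lists (y axis), with filled points for an adjusted p under 0.05 (red higher, blue lower) and open points for the rest. Genes past a log2 fold change of 1 in either direction are named, among them Pkp2 at 2.00, Sync at 1.32, Jup at -1.49, Casp6 at -1.47 and Iffo2 at -1.12.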

How the data were processed

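The methods and the submitters' processing notes state that Affymetrix Expression Console gave CHP files and that the authors normalized the scans in Partek (version 6.6). What was deposited is a log2 value for each of 35556 probe sets, with medians of 6.06 to 6.12 per array. Background correction and summarization were not given in the sources used here. Names came from the platform annotation of Mouse Gene 1.0 ST, which holds the deposited identifiers, whereas the methods name version 2.0. Of the probe sets, 21789 carried 1 gene symbol and gave 19938 genes, each by its probe set with the highest mean. Symbols and gene order came from RefSeq (GRCm38.p6), with 21698 probe sets matched.

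KO and WT arrays were compared with limma (version 3.58.1, R 4.3.3), with p-values adjusted over all genes by Benjamini-Hochberg. Calls were made at an adjusted p under 0.05, and no filter on low values was used. The test was also run on simulated data with independent noise and 200 changed genes. That is a far smaller share than was called here, so the simulation does not test these calls. Named genes were the members, H2ax, the 5 genes most like Nefl, called neighbours, and the 3 largest called rises and falls of each list. Defining markers were named in part. Other neighbours and list genes were named after their values were seen. The members and lists were chosen with earlier results of these data known. Alternatives were quantile normalization, median centring, dropping the lower 50% of genes by mean level, averaging a gene's probe sets, a trended and robust variance prior, the methods' one-way ANOVA, the replicate number as a block, and leaving out each array. The number of arrays limits the precision.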

Additional observations from a re-analysis of the deposited data

How the results depend on the processing

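Nes kept its direction and its call under all 13 alternatives. Nefl was chosen by its fall on these arrays, so that no stability is read from its values. The count of higher members other than Nefl was 0 to 1 with each array left out, and that of lower members was 2 with the one-way ANOVA, where Vim was added, and 1 otherwise. Neuron markers that passed numbered 3 with the lower 50% of genes by mean level dropped, which tests fewer genes, and neighbours of Nefl that passed numbered 3 to 5 with each array left out. Small log2 fold changes changed sign when an array was left out. That of Nefh ran from -0.0065 (without WT replicate 2) to 0.101, and was also below 0 without KO replicate 2 (-0.0023) or WT replicate 1 (-0.0045). That of Ina ran from -0.0044 (without WT replicate 3) to 0.112, and that of Adam7 from -0.048 (without KO replicate 2) to 0.051, and was below 0 without WT replicate 1 or 3. The cause was not tested.

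Same-numbered KO and WT arrays did not deviate together, with correlations of deviations of -0.29, -0.24 and 0.08. Arrays of unlike number had correlations from -0.165 to 0.32. These few values give no sign of pairing by replicate number and cannot exclude a pairing of the arrays. With the replicate number as a block, 1 member other than Nefl was lower and none was higher, and of the named genes only Sox2 and Cd68 lost their calls. Depth has no counterpart on these arrays, and values near the background of the olfactory receptor genes, such as those of Nefm, Ina, Prph, Des and Gfap, limit what differences could be seen.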
